A study of Homo sapiens with 48 samples.

Results

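The comparison described here asks whether the A546H form of UPF1 changes transcript levels in human cells that still have their own UPF1. Flp-In 293 T-REx cells are an established derivative of the human embryonic kidney 293 line with a recombination site that takes up a transgene. The tested libraries came from a line that stably expressed CLIP-tagged UPF1 with the change A546H, and the libraries they were set against came from a line with CLIP-tagged wild-type UPF1, called WT. Both received a non-targeting siRNA, called siNT, so that endogenous UPF1 was not depleted. The members were chosen by their labels as A546H siNT replicates 1 to 3 and WT siNT replicates 1 to 3, which are 6 of the 48 libraries of the series. The whole series holds 8 lines, each with 3 siNT libraries and 3 libraries with siRNA against endogenous UPF1, called siUPF1. The other lines carried CLIP-UPF1 with R843C, K498A, DE636AA, GA-KH or E797R, or the CLIP tag without UPF1, called CLIP. In every group the siRNA was used at 40 nM and RNA was taken after 72 h, and ribosomal RNA was removed before paired-end libraries were made. The labels describe the replicates as biological but do not say how many clones make up a line, so the difference between A546H and WT cannot be told apart from a difference between the lines that carry them.

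Nonsense-mediated mRNA decay (NMD) removes transcripts whose stop codon is read as premature, and it also limits many normal transcripts, among them those with upstream open reading frames, long 3' untranslated regions or an exon junction after the stop codon. UPF1 is its central ATP-dependent RNA helicase. SMG1 phosphorylates UPF1, SMG5 and SMG6 bind the phosphorylated protein, and UPF2 and UPF3B stimulate its ATPase. Several mRNAs for NMD factors are themselves NMD targets, so that they are known to increase when NMD is weakened.

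The codon that A546H replaces is shown because the comparison turns on that single residue, and the codons of K498A, DE636AA and R843C are shown because those lines are set beside it. They were read from the GENCODE 29 transcript of UPF1 with 1118 residues, whose numbering matches the original residue at each labelled position, on build GRCh38. The counts were made on build hg19, and the sequence of the transgenes themselves was not used here. The alanine codon lies in the coding sequence of exon 12 on the plus strand of chromosome 19 at 18856016 to 18856018. Each line gives 15 bases on either side of the codon, and capitals mark the codon that the label says was changed.
A546H, chr19:18856001-18856033: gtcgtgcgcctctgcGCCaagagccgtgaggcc
K498A, chr19:18855175-18855207: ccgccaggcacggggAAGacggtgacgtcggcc
DE636AA, chr19:18856943-18856978: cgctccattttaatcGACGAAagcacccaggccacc
R843C, chr19:18862064-18862096: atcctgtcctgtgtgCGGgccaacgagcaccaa

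The 6 libraries held 28.3 to 34.7 M expected counts, within the 21.3 to 47.1 M of all 48, and 23752 to 24846 genes had a count. All 14 markers of 293 cells were measured, with sums of 1800 to 2010 CPM (counts scaled to a common library size) in A546H and 1760 to 1900 CPM in WT. Of 18 markers of other cell types, 17 were in the table and 5 of these (PTPRC, CD3E, COL1A2, AFP and HBG1) were at 0 in all 6 libraries. The sums of that list were 101 to 114 CPM in A546H and 102 to 110 CPM in WT, of which the epithelial gene EPCAM made up 91.4 CPM in A546H and 88.6 CPM in WT on average. Each of the other 16 averaged at most 5.49 CPM in either line. A546H siNT replicate 3 stood apart in base composition. For each library, the deviation from the mean of the 6 libraries was correlated with GC content across genes. The Spearman correlation was 0.51 in that replicate, against -0.258 and -0.176 in A546H replicates 1 and 2 and -0.224 to -0.00478 in WT.

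UPF1 was measured first, since its counts sum the endogenous gene and the transgene. The A546H siNT libraries held 4027, 4147 and 5017 CPM of UPF1 (ENSG00000005007.8), and the WT siNT libraries held 5188, 5033 and 5639 CPM. Every A546H library lay below every WT library. The means were 4397 ± 540 CPM in A546H and 5287 ± 315 CPM in WT (SD, n = 3 each). The difference was not called by the quasi-likelihood test of edgeR, with p adjusted by Benjamini-Hochberg over all genes (log2 fold change -0.27, SE 0.16, adjusted p = 0.521), but it was called after a correction for GC content (log2 fold change -0.32). Against the CLIP line, which has no UPF1 transgene, the A546H line stood 5.35 higher on the log2 scale. The counts do not separate endogenous UPF1 from the transgene.

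Expression of A546H over endogenous UPF1 went with small changes in a limited set of genes. Of 19129 genes tested, 170 (0.889%) were called at an adjusted p under 0.05 in edgeR, 102 higher (0.533%) and 68 lower (0.355%) in A546H than in WT. Only 11 of these differed by 2-fold or more, and none of the 11 reached a mean of 5 CPM. The median log2 fold change was 0.408 among the genes called higher and -0.433 among those called lower, against -0.0166 over all genes. The number of calls rested on each library: it was 40, 355 and 22 without A546H replicate 1, 2 or 3, and 33, 31 and 63 without WT replicate 1, 2 or 3. Fitting the 6 libraries alone, in place of all 48 with their shared estimate of the spread, left 11 calls.

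The genes that rose most were not all known NMD targets. NFKBIB, which encodes the NF-kappa-B inhibitor beta and belongs to the NMD target list, had 110, 110 and 124 CPM in A546H and 69.4, 76.5 and 78.1 CPM in WT. The groups did not overlap, which was a condition for naming these genes (log2 fold change 0.62, SE 0.11, edgeR adjusted p = 0.0019). Of all genes, 10.2% had no overlap in the upward direction. AIFM2, a flavoprotein that reduces coenzyme Q and limits ferroptosis, had 22.4, 19.1 and 22.5 CPM in A546H and 13.2, 13.5 and 13.8 CPM in WT (log2 fold change 0.66, SE 0.11, edgeR adjusted p = 0.00131). ABHD4, a lipase of N-acyl phospholipids, had 8.46, 7.69 and 9.16 CPM in A546H and 4.63, 5.36 and 4.62 CPM in WT (log2 fold change 0.79, SE 0.15, edgeR adjusted p = 0.00611). ABHD4 was not called after siUPF1 in the CLIP line, where its log2 fold change was -0.08.

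The snoRNA host gene SNHG11, which carries small nucleolar RNA in its introns, had 9.75, 10.1 and 10.9 CPM in A546H and 7.14, 5.79 and 5.53 CPM in WT. Its log2 fold change was 0.73 (SE 0.17, edgeR adjusted p = 0.0235). The other genes of the 12 with the largest increases had log2 fold changes of 0.53 to 0.65. They were URM1, a ubiquitin-like sulfur carrier of tRNA thiolation; ZFAND2A, a stress-induced zinc finger protein; BAX, a pro-apoptotic p53 target; BRMS1, a subunit of a histone deacetylase complex; DUSP6, a phosphatase of ERK; ARPC4, a subunit of the Arp2/3 complex; and C10orf35 and C6orf1. All 12 had no overlap between the groups, which was a condition for naming them. NFKBIB overlaps SIRT2 in the annotation, AIFM2 overlaps H2AFY2 and ARPC4 overlaps TADA3, and the strand setting of the counting is not given in the sources used here.

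**Figure D1:**
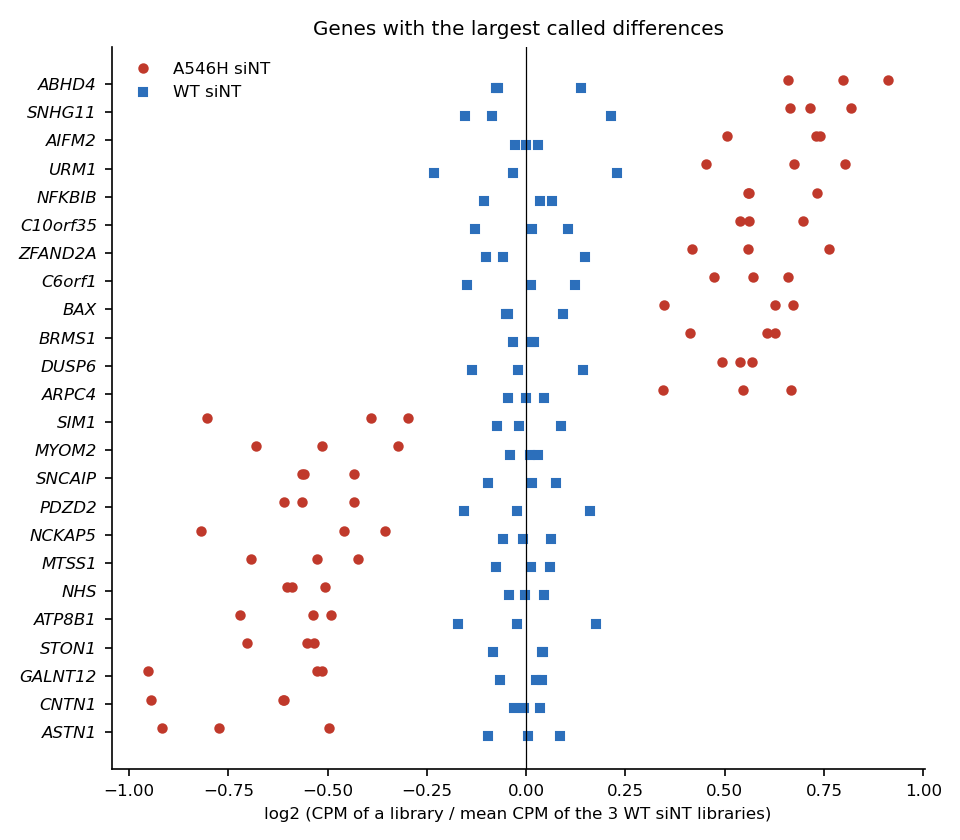
Log2 ratio of each library's CPM to the mean of the 3 WT siNT libraries (x axis) for the 12 called genes with the largest increases and the 12 with the largest decreases of at least 5 CPM (y axis). Circles are the 3 A546H siNT libraries and squares the 3 WT siNT libraries. The genes were chosen for no overlap, so in all 24 the A546H circles lie on one side of every WT square.

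The genes that fell most were of varied function. CNTN1, a neuronal adhesion molecule of the contactin family, had 26.6, 26.7 and 21.1 CPM in A546H and 41.7, 39.9 and 40.6 CPM in WT (log2 fold change -0.71, SE 0.11, edgeR adjusted p = 0.00038). ASTN1, a membrane protein of glia-guided neuronal migration, had 7.03, 7.76 and 9.4 CPM in A546H and 12.4, 14.1 and 13.3 CPM in WT (log2 fold change -0.72, SE 0.11, edgeR adjusted p = 0.000345). NHS, a regulator of the actin cytoskeleton, had 6.73, 7.13 and 6.68 CPM in A546H and 10.5, 9.83 and 10.1 CPM in WT (log2 fold change -0.57, SE 0.11, edgeR adjusted p = 0.00551). The groups of these 3 genes did not overlap, which was a condition for naming them. Of all genes, 10.9% had no overlap in the downward direction. The other 9 were GALNT12, a glycosyltransferase that starts mucin-type O-glycans; STON1, an endocytic adaptor; ATP8B1, a phospholipid flippase; MTSS1, a membrane-bending actin regulator; SIM1, a transcription factor; SNCAIP, a partner of alpha-synuclein; MYOM2, a sarcomere protein; and NCKAP5 and PDZD2. Their log2 fold changes ran from -0.65 to -0.48.

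Of the 32 named genes called in A546H against WT, 5 were called without any 1 of the 6 libraries: AIFM2, ASTN1, CNTN1, NFKBIB and NHS. AIFM2, CNTN1 and NFKBIB were also called under each of the 15 alternative settings run, and no named gene that was called changed direction. Without A546H siNT replicate 3, 7 of the 32 were called, and without replicate 2 of that group 29 were. Without A546H replicate 1, 12 of the 32 were called, and without WT replicate 1, 2 or 3 the numbers were 9, 11 and 14.

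For some of these genes the CLIP line lay between A546H and WT. CNTN1 averaged 24.8 ± 3.2 CPM in A546H, 40.7 ± 0.91 CPM in WT and 30.3 ± 0.83 CPM in CLIP (SD, n = 3 each), and A546H against CLIP was not called (log2 fold change -0.29, edgeR adjusted p = 0.59). AIFM2 averaged 21.3 ± 1.9 CPM in A546H, 13.5 ± 0.27 CPM in WT and 16.7 ± 0.86 CPM in CLIP, with a log2 fold change of 0.36 against CLIP that was not called (edgeR adjusted p = 0.35). NFKBIB averaged 115 ± 8.0 CPM in A546H, 74.7 ± 4.6 CPM in WT and 81.2 ± 5.6 CPM in CLIP, and it was called against CLIP as well (log2 fold change 0.50, edgeR adjusted p = 0.034). Against CLIP, 24 genes (0.125%) were called in A546H siNT, and 6 genes (0.0314%) in WT siNT. Of the 102 genes called higher against WT, 11 were called higher against CLIP, as were 0.0993% of all genes, with a median log2 fold change of 0.218. Of the 68 called lower, 2 were called lower against CLIP, as were 0.0261% of all genes, with a median of -0.25. Both comparisons share the A546H siNT libraries.

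Few mRNAs of the NMD factors were called by edgeR, which called 0.889% of all genes. DESeq2 called 3 of 16, and 6 had an unadjusted p under 0.05, as did 2466 of all 19129 genes. SMG6, the endonuclease that cuts NMD targets, was the 1 gene called by edgeR of 16 NMD factors other than UPF1. It had 124, 118 and 141 CPM in A546H and 103, 105 and 96.7 CPM in WT, without overlap (log2 fold change 0.33, SE 0.08, edgeR adjusted p = 0.0374). Its call was lost without A546H replicate 1 or 3 and without any 1 of the WT libraries, with adjusted p values of 0.103 to 0.293. SMG5, which binds phosphorylated UPF1 and promotes decay of its targets, had 228, 217 and 261 CPM in A546H and 170, 189 and 191 CPM in WT, also without overlap, and missed the threshold (log2 fold change 0.36, edgeR adjusted p = 0.0646). SMG8, a subunit of the SMG1 complex, was at a log2 fold change of 0.27 (edgeR adjusted p = 0.0534).

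The kinase SMG1 had 471, 463 and 362 CPM in A546H and 379, 390 and 380 CPM in WT, with replicate 3 of A546H below all WT libraries. UPF2 showed the same layout, with 120, 114 and 88.8 CPM in A546H and 93.8, 94.8 and 96.8 CPM in WT. Neither was called. Among other factors, RUVBL2 and SMG9 had a log2 fold change of 0.13, RUVBL1 of 0.12, DHX34 of 0.09, PNRC2 of 0.07, CASC3 of 0.05, UPF3B of 0.00, GNL2 of -0.01, UPF3A of -0.03 and NBAS of -0.13, and none was called. The list median was 0.123, with 13 of 16 members above 0, where 46.6% of all genes were above 0. Without A546H replicate 3 the median was 0.0727.

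Known NMD targets lay above WT in most cases, but most did not pass the test. Of 25 targets tested, 2 were called, both higher, and 22 had a log2 fold change above 0, with a list median of 0.154. Over all genes, 0.533% were called higher, 46.6% were above 0 and 10.2% lay above WT without overlap. The called members were NFKBIB and ATF4, the transcription factor of the integrated stress response, whose mRNA carries upstream open reading frames. ATF4 had 1140, 1090 and 1278 CPM in A546H and 840, 869 and 905 CPM in WT, without overlap (log2 fold change 0.42, SE 0.08, edgeR adjusted p = 0.00603). ATF4 was also called against CLIP (log2 fold change 0.59, edgeR adjusted p = 4.3e-05). Without A546H replicate 3 its adjusted p was 0.0858, and without WT replicate 1 it was 0.0556, both in edgeR. BAG1, UPP1, RP9P and GABARAPL1 did not overlap between the groups and had log2 fold changes of 0.47, 0.45, 0.40 and 0.36, but were not called. GADD45B, a target whose decay is linked to cell survival, was at 0.03, and ERN1, the stress sensor IRE1 alpha, was at -0.15. DESeq2 called 4 of the 25 targets, and 8 had an unadjusted p under 0.05, as did 2466 of all 19129 genes.

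Of 22 snoRNA host genes tested among 26 listed, SNHG11 was called, and the list median was 0.168 with 19 members above 0. Over all genes, 46.6% were above 0. SNHG5 was at 0.65 (edgeR adjusted p = 0.0536) and SNHG15 at 0.35 (edgeR adjusted p = 0.058), while GAS5, the best studied host, was at 0.17. DESeq2 called 3 of the 22 hosts, and 7 had an unadjusted p under 0.05, as did 2466 of all 19129 genes. Over the 3 lists together 63 genes were tested, 4 were called (6.35%), all higher, where 0.533% of all genes were called higher. In 22 of the 63 (34.9%) the A546H libraries lay above WT without overlap and in 1 below, where 10.2% and 10.9% of all genes did. The count of 4 was 1 without A546H replicate 3, 8 without replicate 2 and 2 without each of the other 4 libraries. These lists were chosen with earlier results of the data known, so their direction is not independent evidence.

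**Figure D2:**
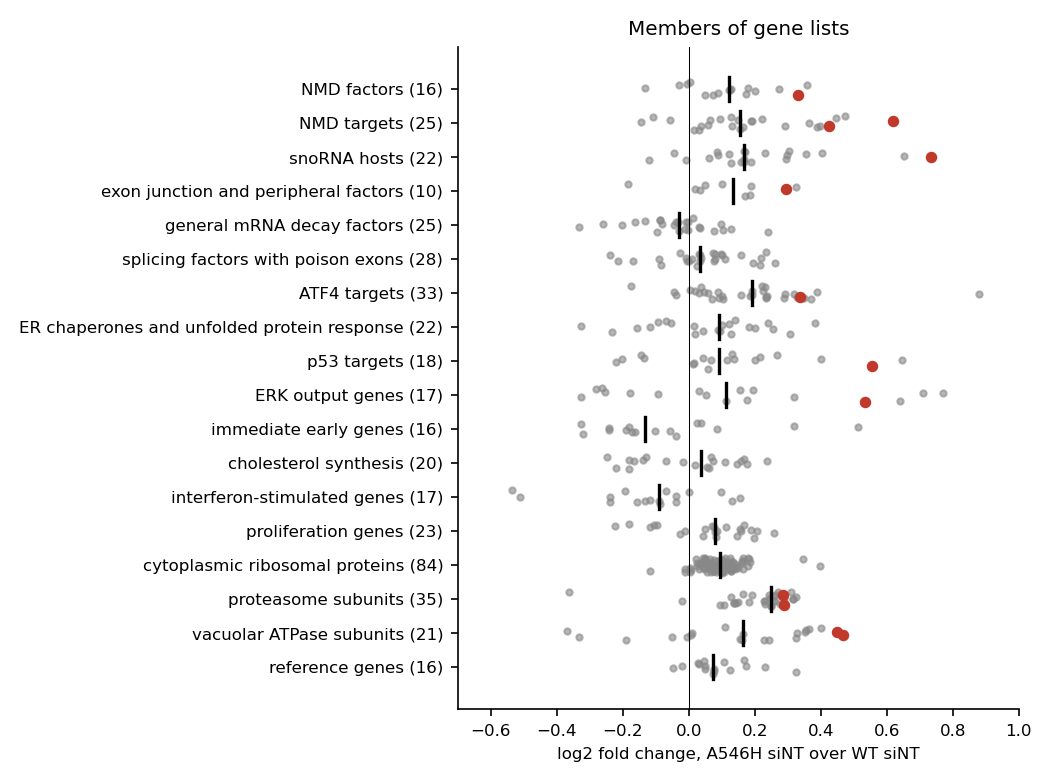
Log2 fold change of A546H siNT over WT siNT (x axis) for each tested member of 18 gene lists (y axis, number of members in brackets). Red points are genes called by edgeR, grey points genes that were not, and black bars mark list medians; the NMD factor, NMD target and snoRNA host medians lie at 0.123, 0.154 and 0.168.

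Genes that ATF4 activates gave 1 call in edgeR. Of 33 ATF4 targets, 30 were above 0 and the median was 0.192, but edgeR called SLC3A2 alone. Over all genes, 46.6% were above 0, and edgeR called 0.889%, with 0.533% higher. Of the ATF4 targets, DESeq2 called 2, and 10 had an unadjusted p under 0.05, as did 2466 of all 19129 genes. Without A546H replicate 3 the median was 0.107. SLC3A2, the heavy chain of amino acid exchangers, had 123, 114 and 128 CPM in A546H and 94, 98.1 and 96.1 CPM in WT (log2 fold change 0.34, SE 0.08, edgeR adjusted p = 0.038), and its call was lost in 5 of the 6 fits that left out a library. NUPR1 had the largest value of the list (0.88) and did not reach the threshold (edgeR adjusted p = 0.121). Per library, the mean of the list was 6.10, 6.18 and 6.33 log2 CPM in A546H and 5.97, 5.97 and 6.13 log2 CPM in WT, so that the groups overlapped. ER chaperone and unfolded protein response genes had 0 calls among 22 in edgeR and a median of 0.0912.

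The next lists held 0 or 1 edgeR call each, where 0.889% of all genes were called and 0.533% were called higher. The exon junction and peripheral factors had 1 call of 10, RBM8A, the Y14 core subunit, with 174, 153 and 175 CPM in A546H and 134, 137 and 139 CPM in WT (log2 fold change 0.30, SE 0.07, edgeR adjusted p = 0.0195). The p53 targets had 1 call of 18 (BAX), with CDKN1A at 0.13 and MDM2 at 0.12. The ERK output genes had 1 call of 17 (DUSP6), beside ETV5 at 0.77, ETV4 at 0.71 and SPRY4 at 0.64, which were not called by edgeR. DESeq2 called 3 of the 17, and 8 had an unadjusted p under 0.05. General mRNA decay factors had 0 calls among 25 and a median of -0.0297. Splicing factors with poison exons, which are NMD targets through alternative exons, had 0 calls among 28 and a median of 0.0348. Immediate early genes (16), interferon-stimulated genes (17), cholesterol synthesis genes (20), SRF and YAP targets (13), proliferation genes (23), mitochondrially encoded genes (13), ribosomal protein genes (84), histone genes (59) and reference genes (16) had 0. Over the 336 genes in the lists without an edgeR call, 54 had an unadjusted p under 0.05, and DESeq2 called 2. The 59 histone genes held 27 of these 54. Of all 19129 genes, 2466 had an unadjusted p under 0.05. The medians of ribosomal protein and reference genes were 0.0944 and 0.0741, and that of the histone genes was 0.30.

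A broader set of genes that respond to siUPF1 without a UPF1 transgene was taken from libraries that this comparison does not use. UPF1-restrained genes rose by at least 1 on the log2 scale after siUPF1 in the CLIP line, and more so there than in the GA-KH and E797R lines; UPF1-supported genes did the same downward. There were 561 restrained and 269 supported genes. In A546H against WT under siNT, 18 restrained genes were called higher (3.21%) and 0 lower by edgeR (0 by DESeq2, 9 at an unadjusted p under 0.05), with a median of 0.121 and 405 of 561 (72.2%) above 0. Of all genes, 0.533% were called higher and 46.6% were above 0. Of the supported genes, 8 were called lower (2.97%) and 0 higher by edgeR (0 by DESeq2, 2 at an unadjusted p under 0.05), with a median of -0.189 and 223 of 269 below 0, where 0.355% of all genes were called lower. In WT against CLIP under siNT, 405 of 561 restrained genes (72.2%) were above 0 as well, with a median of 0.0928. There 51.4% of all genes were above 0, and the supported median was 0.00564. In the other mutant lines against WT, the share of restrained genes above 0 ran from 45.5% (E797R) to 67.4% (R843C). Of all genes, 47.5% and 49.2% were above 0 in these 2 comparisons. The median response of the restrained genes to siUPF1 in the CLIP line was 1.26, which was also part of how they were chosen. Much of the response remained in the WT line. There siUPF1 against siNT called 232 of the 561 restrained genes higher (41.4%), with a median of 0.343. It called 144 of the 269 supported genes lower (53.5%), with a median of -0.529. Of all genes in the WT line, 14% were called higher and 13.3% lower.

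Per library, the restrained genes averaged 3.48, 3.54 and 3.60 log2 CPM in A546H and 3.39, 3.44 and 3.43 log2 CPM in WT. The supported genes averaged 2.65, 2.68 and 2.55 log2 CPM in A546H and 2.84, 2.83 and 2.84 log2 CPM in WT. The groups did not overlap in either set, and A546H replicate 3 was the outermost library in both. Without it, 3 restrained and 0 supported genes were called and the medians were 0.0903 and -0.126. Without each of the other libraries the counts ran from 5 to 26 restrained and from 0 to 10 supported genes.

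Besides SNHG11, NFKBIB, C10orf35 and ZFAND2A, the restrained genes with the largest called increases included the pseudogene CIDECP, with 5.68, 4.78 and 5.27 CPM in A546H and 3.6, 3.76 and 3.84 CPM in WT (log2 fold change 0.49, SE 0.11, edgeR adjusted p = 0.0247). CIDECP shares sequence with its parent gene, so its counts are uncertain. The supported genes with the largest called decreases were KLHL41, a Kelch protein of the sarcomere, CTC-277H1.7, STON1, ATP8B1 and PDZD2. KLHL41 had 2.78, 2.29 and 1.52 CPM in A546H and 4.19, 4.35 and 3.19 CPM in WT (log2 fold change -0.82, SE 0.20, edgeR adjusted p = 0.0374).

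**Figure D3:**
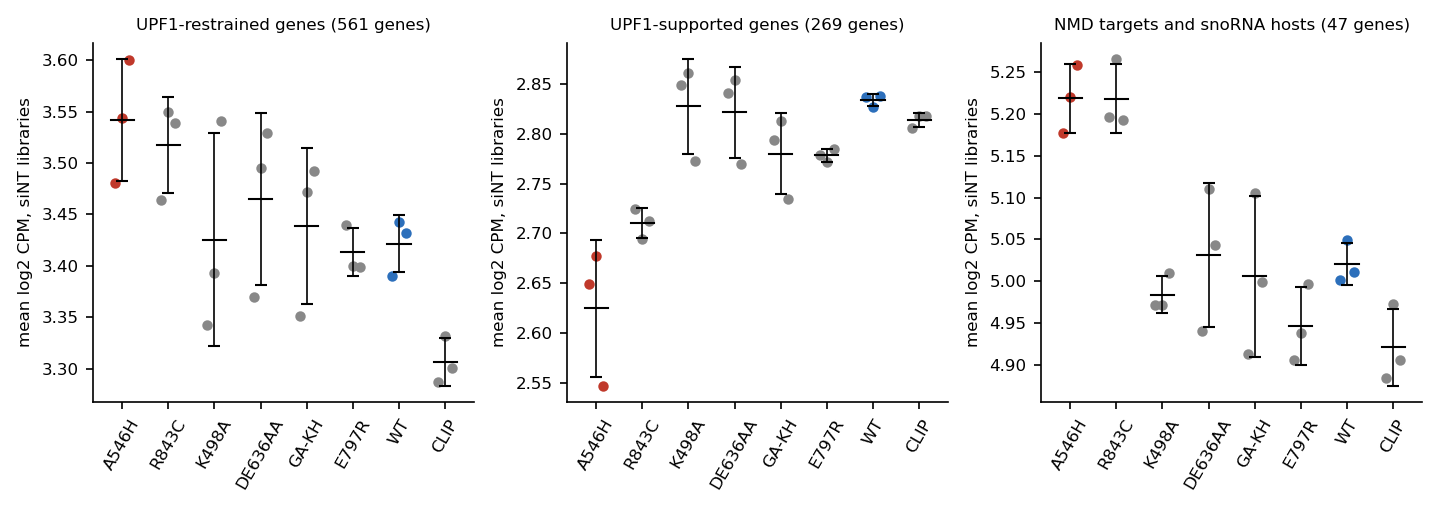
Mean log2 CPM (y axis) of UPF1-restrained genes, UPF1-supported genes and the 47 NMD targets and snoRNA hosts in each of the 24 siNT libraries, by line (x axis). Points are libraries and bars are the mean ± SD of 3; A546H averages 3.54, 2.62 and 5.22 in the 3 panels, WT averages 3.42, 2.83 and 5.02, and R843C lies nearest to A546H in all 3.

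The A546H and WT lines were also compared after siUPF1, in 6 libraries that share none with the siNT pair. There 1546 genes (8.08%) were called, 985 higher (5.15%) and 561 lower (2.93%) in A546H. Of the 102 genes called higher under siNT, 101 had the same direction and 67 were called under siUPF1, which is 65.7% of the siNT calls and 6.8% of the 985. Of the 68 called lower under siNT, 64 had the same direction and 42 were called, which is 61.8% of the siNT calls and 7.49% of the 561. None was called in the opposite direction. The medians of the 102 genes were 0.408 under siNT and 0.412 under siUPF1, and those of the 68 genes were -0.433 and -0.381 in the same order. Both groups of genes were chosen by their siNT values, which favours siNT medians far from 0. Over all genes the Spearman correlation between the line differences under siNT and siUPF1 was 0.337, across genes of the same pair of lines.

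The medians of the UPF1-restrained and UPF1-supported genes were further from 0 after siUPF1. These genes were chosen by a response to siUPF1 in CLIP, and the 102 and 68 genes by their siNT values. The choice itself favours different patterns, so the sets are described side by side only. Under siNT the median of the restrained genes was 0.121, and under siUPF1 it was 0.367, where 221 of 561 (39.4%) were called higher. The median of the supported genes was -0.189 under siNT and -0.327 under siUPF1, where 61 of 269 were called lower. A test of the difference itself, A546H minus WT under siUPF1 less the same under siNT, called 57 genes (0.298%), 49 of them higher (0.256%), and 20 restrained genes were among those 49. Of the 102 genes called higher under siNT, 4 were among those 57, and of the 68 called lower, edgeR called 0 further down, 5 had an unadjusted p under 0.05 in that direction and DESeq2 called 0.

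Of the 16 NMD factors, 3 were called in the test of the difference. SMG5 had a log2 fold change of 0.36 under siNT and 0.96 under siUPF1, SMG6 had 0.33 and 0.86, and SMG1 had 0.17 and 0.75 in the same order. The difference was called for SMG5 (edgeR adjusted p = 0.0461), SMG6 (edgeR adjusted p = 0.0223) and SMG1 (edgeR adjusted p = 0.00736). For ATF4, at 0.42 under siNT and 0.61 under siUPF1, and for SNHG11, at 0.73 and 0.71, it was not called. PEA15, a small regulator of ERK and apoptosis signalling, had 76.4, 82 and 94.3 CPM in A546H siNT and 59.1, 63.6 and 56.3 CPM in WT siNT (log2 fold change 0.50, edgeR adjusted p = 0.00282). Under siUPF1 it had 128, 128 and 132 CPM in A546H and 44.3, 49.5 and 37.3 CPM in WT (log2 fold change 1.56). The difference of 1.06 was called (edgeR adjusted p = 5.5e-06), and PEA15 was named as the highest gene of that test.

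**Figure D4:**
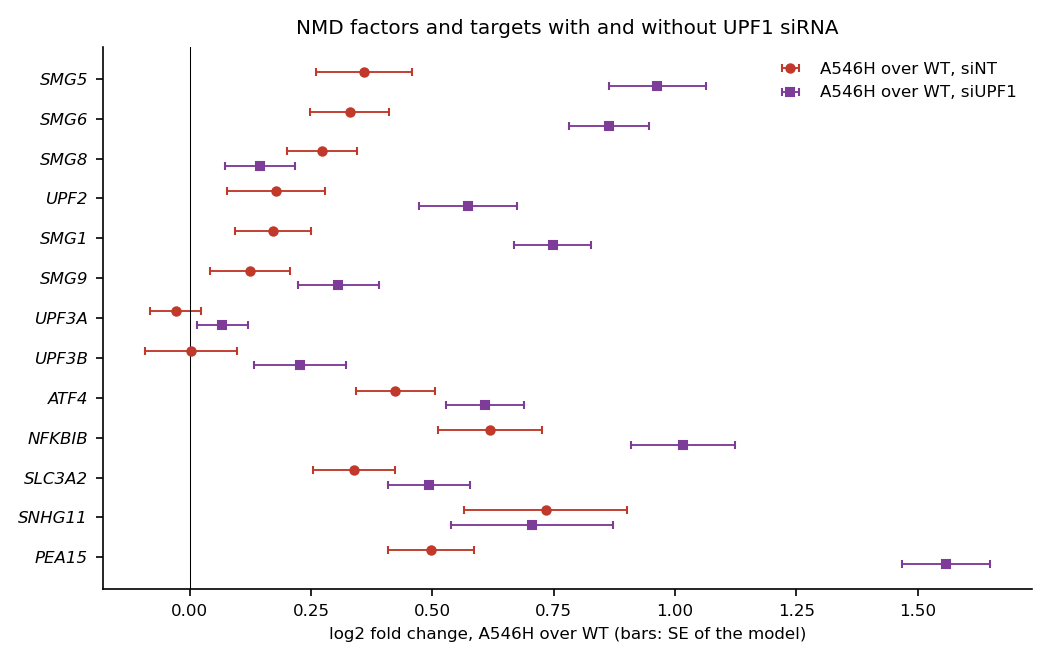
Log2 fold change of A546H over WT (x axis) with the standard error of the model for 13 genes (y axis), under siNT (red circles) and siUPF1 (purple squares). SMG5, SMG6, SMG1 and PEA15 stand at 0.36, 0.33, 0.17 and 0.50 under siNT and at 0.96, 0.86, 0.75 and 1.56 under siUPF1, while SNHG11 stands at 0.73 and 0.71.

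The genes called in A546H under siNT were also read in the response of the CLIP line to siUPF1, where 9066 genes (47.4%) were called and 4798 (25.1%) rose. The WT line, which carries wild-type CLIP-UPF1, also responded to siUPF1, with 5211 genes called. Of the 102 genes called higher in A546H, 76 (74.5%) rose and 3 fell after siUPF1 in CLIP, with a median of 0.587. Of the 68 called lower, 40 (58.8%) fell and 7 (10.3%) rose, where 22.3% of all genes fell, with a median of -0.369. The Spearman correlation between the A546H difference and the CLIP response was 0.198 over all genes. DUSP6 was among the exceptions, with a log2 fold change of 0.53 in A546H siNT over WT siNT and -0.85 in the CLIP response. MTSS1, NCKAP5 and MYOM2 fell in A546H but had CLIP responses of -0.14, -0.18 and -0.18 that were not called.

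**Figure D5:**
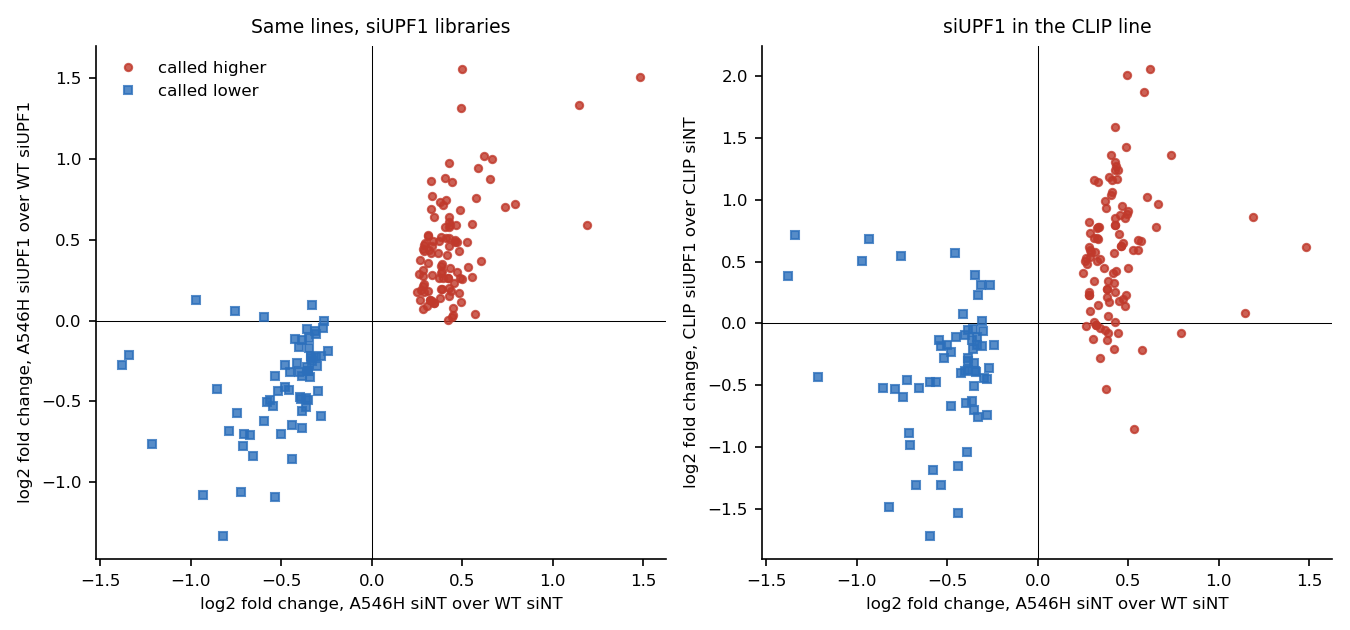
Log2 fold change of A546H siNT over WT siNT (x axis) for 165 of the 170 called genes against the same line difference under siUPF1 (left) and against CLIP siUPF1 over CLIP siNT (right). Red circles are genes called higher and blue squares genes called lower; 5 genes beyond 1.6 on the x axis are not drawn, and over all 170, 101 of 102 and 64 of 68 keep their side in the left panel.

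Among the other mutant lines under siNT, R843C differed from A546H in the fewest genes. Of 19129 genes, 6 (0.0314%) were called between A546H and R843C, against 553 (2.89%) between A546H and K498A and 1459 (7.63%) between A546H and DE636AA. GA-KH and E797R differed from A546H in 20 (0.105%) and 122 (0.638%) genes. K498A and DE636AA, whose changes lie in the ATP-binding and hydrolysis motifs, differed from WT in 5 genes (0.0261%) each, R843C and GA-KH in 17 (0.0889%) each and E797R in 9 (0.047%). These comparisons share the A546H or the WT libraries.

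For the 102 genes called higher in A546H, the median against WT was 0.228 in R843C, 0.154 in GA-KH, 0.124 in E797R, 0.0404 in K498A and -0.0202 in DE636AA, all with the shared WT libraries. A546H minus R843C had a median of 0.171 over the same genes, of which edgeR called 0 higher, where it called 0.00523% of all genes. At an unadjusted p under 0.05, 47 of them were higher, and DESeq2 called 0. These genes were chosen for high values in the same A546H libraries, which favours positive differences from the other lines, so these values and those against DE636AA are descriptions. The few calls do not show that both lines act alike. Against DE636AA, A546H was higher by 0.60 for NFKBIB (SE 0.11), by 0.46 for ATF4 (SE 0.08) and by 0.80 for SNHG11 (SE 0.17) on the log2 scale. SMG6 did not differ by call between A546H and DE636AA (log2 fold change 0.09). ATF4 averaged 1169 ± 97 CPM in A546H, 1070 ± 27 in R843C, 809 ± 81 in K498A, 852 ± 67 in DE636AA, 898 ± 76 in GA-KH, 821 ± 50 in E797R, 872 ± 33 in WT and 777 ± 27 in CLIP. The 47 NMD targets and snoRNA hosts averaged 5.219 ± 0.041 log2 CPM in A546H and 5.218 ± 0.041 in R843C, against 5.021 ± 0.025 in WT, 5.031 ± 0.086 in DE636AA, 4.984 ± 0.023 in K498A and 4.921 ± 0.046 in CLIP.

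Under siNT, 0 genes were called higher in A546H against all of the 7 other lines at once, by edgeR or by DESeq2. PABPC4L was called lower against all 7 by edgeR, but its mean was below 5 CPM.

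The called genes differed in base composition and length from the genes tested. Median GC content of the longest transcript was 53.5% for genes called higher and 44.6% for genes called lower, against 48.4% for all genes, and median lengths were 2353, 6343 and 3063 bases in the same order. Across all genes the difference between A546H and WT had a Spearman correlation of 0.142 with GC content and -0.229 with length. A per-library correction for GC content gave 642 calls, and one for transcript length gave 119 (85 higher and 34 lower). The part of base composition, length and the offset of A546H replicate 3 in these differences was not tested beyond those corrections. In RefSeq promoters of GRCh38.p14, 250 bases before to 50 after the start on both strands, the extended E-box CACGTGAC was found in 9 of 90 genes called higher (10.0%), 0 of 47 called lower and 4.21% of 12094 tested genes. The ATF4 element TGATGNAAN was found in 2 of the 90, 1 of the 47 and 1.72% of all, and the cyclic AMP response element TGACGTCA in 0, 0 and 3.21%.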

How the data were processed

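Values are RSEM expected counts per gene, deposited by the authors as 1 table of 57820 genes and 48 libraries. Per the submitters' processing notes, reads were processed with cutadapt, STAR, RSEM and DESeq2 on build hg19. Settings and strand are not given in the sources used here. All 48 columns belong to samples of the series.

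Expected counts were rounded to whole numbers. Genes were kept with edgeR's filterByExpr over the 16 groups (19129 genes, at least 99.94% of counts). TMM factors of the 6 libraries ran from 0.984 to 1.02. edgeR 4.0.16 (R 4.3.3, limma 3.58.1) fitted 1 term per group to all 48 libraries with the quasi-likelihood test and Benjamini-Hochberg adjustment over all genes tested, and a gene was called at an adjusted p under 0.05. A standard error is the log2 fold change divided by the square root of F. CPM uses TMM library sizes, and log2 CPM a prior count of 2. DESeq2 1.42.0 was an alternative. The procedure was tested on simulated data.

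Named genes are UPF1, the 12 highest and 12 lowest called genes that average 5 CPM or more and show no overlap, skipping clone-named loci, pseudogenes and histone, ribosomal protein and mitochondrial genes; the NMD factors, of which 1 is not reported here by name; called list members; the 5 most changed called UPF1-restrained and UPF1-supported genes; and the 3 highest and 3 lowest genes of the test of the difference between siRNAs. Other genes were named after their values were seen. Members, gene lists and tests were chosen with earlier results of these data known. The promoter motifs and the lists of proteasome and vacuolar ATPase subunits were chosen after the values were seen. Replicates are labelled biological, and the p-values measure the spread between these samples. Counting error is covered by the model.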

Additional observations from a re-analysis of the deposited data

Results flagged for a closer look

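For 10 named genes the difference between A546H and WT depended on the siRNA by the edgeR test of the difference itself (siUPF1 minus siNT, log2 scale, Benjamini-Hochberg adjusted p under 0.05). It was positive for PEA15 (1.06), FAM13B (0.95), CLDN15 (0.88), CIDECP (0.83), SMG5 (0.60), SMG1 (0.58) and SMG6 (0.54). It was negative for INSIG1 (-0.78), which holds back sterol regulatory proteins in the endoplasmic reticulum, for the matrix protein gene MATN2 (-0.64), and for SQLE (-0.53), an enzyme of sterol synthesis. PEA15, FAM13B and CLDN15 were named as the 3 highest called genes of this test, and INSIG1, MATN2 and SQLE as the 3 lowest. Their calls were therefore fixed by the choice. Of all 19129 genes, 57 (0.298%) were called in this test, and 9 when its libraries were fitted alone. FAM13B and CLDN15 had log2 fold changes of 0.23 and 0.13 under siNT and 1.18 and 1.01 under siUPF1. INSIG1 and SQLE stood at -0.25 and -0.07 under siNT and at -1.02 and -0.59 under siUPF1. MATN2 overlaps RPL30 and FAM13B overlaps PKD2L2 in the annotation. Groups of 3 libraries are too small for a formal rule on outlying libraries, and fits that left out 1 library are given below.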

How the results depend on the processing

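The number of genes called between A546H siNT and WT siNT moved with the processing. It was 170 (102 higher, 68 lower) as reported, 185 with relative log expression factors, 175 without a low-count filter, 160 with mitochondrial genes and UPF1 out of the totals and 119 with a length correction (85 higher, 34 lower). It was 250 with a filter of 1 CPM in 3 libraries (169 higher), 469 with DESeq2 (276 and 193), 642 with a GC correction (323 and 319) and 11 in the 6 libraries alone (8 and 3). Leaving out 1 library gave 22 to 355 calls, 10 to 245 higher and 10 to 110 lower. The cause of these shifts was not tested. Fits with fewer libraries also have fewer residual degrees of freedom, and the part this plays was not tested.

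For the 3 NMD lists, 7 members were called without a filter and with the 1 CPM filter, 10 with DESeq2, 9 with the GC correction, 2 in the 6 libraries alone and 1 to 8 without 1 library, and none was called lower in any fit. UPF1-restrained genes called higher were 2 in the 6 libraries alone, 35 with DESeq2, 30 with the GC correction and 3 to 26 without 1 library, with medians of 0.0903 to 0.163. UPF1-supported genes called lower were 1, 21 and 22 in the same 3 settings, 3 with the length correction and 0 to 10 without 1 library, with medians of -0.235 to -0.126. Defining the sets without CLIP siUPF1 replicate 2, which stood apart, left 334 and 167 genes, of which 295 and 124 were shared, and moved the supported median to -0.258. UPF1 was called lower only under the GC correction (-0.32) and ran from -0.37 to -0.19 without 1 library. Genes apart from all 7 lines were 2 without a filter, 0 with DESeq2 and in the pairs alone, and 0 to 1 without 1 library.

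A546H against WT under siUPF1 gave 511 calls in its 6 libraries alone, 2795 with the GC correction and 979 to 1392 without 1 library. The difference between siRNAs gave 153 without a filter, 9 in its libraries alone, 119 with DESeq2, 304 with the GC correction and 22 to 59 without 1 library. Against CLIP the counts were 111 without a filter, 48 with DESeq2, 63 with the GC correction and 10 to 20 without 1 library. Against K498A they were 119 in the pair alone, 903 with DESeq2, 1831 with the GC correction and 140 to 613 without 1 library. Against DE636AA they were 171 in the pair alone, 3253 with the GC correction and 238 to 2039 without 1 library. Against R843C they were 55 without a filter, 12 with DESeq2, 10 with the GC correction and 2 to 5 without 1 library. Against GA-KH they were 86 without a filter, 3 in the pair alone, 56 with DESeq2, 41 with the GC correction and 8 to 33 without 1 library. Against E797R they were 47 in the pair alone, 224 with DESeq2, 347 with the GC correction and 39 to 107 without 1 library.

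A replicate block was tried because the groups share replicate numbers. Same-numbered A546H and WT siNT libraries had correlations of deviations of 0.0592, 0.143 and 0.139, and each A546H library correlated best with its own number. Under siUPF1 the correlations of the same-numbered libraries of both lines were 0.134, -0.14 and 0.104. The siNT values are a hint from the data and not the design, so that the samples share only a number. With the block the calls were 588 (342 higher, 246 lower) in A546H against WT, 10 in the NMD lists, 49 restrained and 23 supported genes, 156 for the difference between siRNAs, and 78, 1326, 2580, 88 and 316 against CLIP, K498A, DE636AA, GA-KH and E797R. The GC and length corrections and the left-out libraries of the other lines were chosen after seeing the data.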

Other observations

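Proteasome and vacuolar ATPase subunits were examined after single members were seen among the called genes, so both lists are descriptions without a test. Of 35 proteasome subunits tested, 33 had a log2 fold change above 0 in A546H siNT over WT siNT, and the median was 0.248. Over all genes, 46.6% were above 0 and 0.533% were called higher. PSMC3, an ATPase of the regulatory particle, was called at 0.29 (edgeR adjusted p = 0.0438) and PSMB4, a subunit of the core particle, at 0.28 (edgeR adjusted p = 0.0283). In 25 of the 35 the A546H libraries lay above the WT libraries without overlap, where 10.2% of all genes did. The immunoproteasome subunits PSMB10 and PSMB9 were the exceptions, at -0.02 and -0.36. Under siUPF1 the median of the same list was 0.105, with 1 subunit called, where 8.08% of all genes were called.

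Of 21 vacuolar ATPase subunits, which acidify lysosomes, 16 were above 0 with a median of 0.163. Over all genes, 46.6% were above 0 and 0.533% were called higher under siNT. ATP6V0C and ATP6V0B, subunits of the membrane sector, were called at 0.47 (edgeR adjusted p = 0.00164) and 0.45 (edgeR adjusted p = 0.0235), and 10 of 21 lay above WT without overlap, where 10.2% of all genes did. Of 20 cholesterol synthesis genes, 0 were called by edgeR or DESeq2 and 2 had an unadjusted p under 0.05 under siNT, with a median of 0.0379, but 9 of 20 were called lower with a median of -0.353 under siUPF1, where 2.93% of all genes were called lower.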
